A study of Mus musculus with 13 samples.

Results

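The 29 genes described here encode enzymes and membrane proteins of the lysosome. They comprise 7 cathepsins, 9 other hydrolases, 2 small luminal proteins that help digest or carry lipids, 7 membrane proteins, 3 subunits of the proton pump and the transcription factor Tfeb. They were found by the gene named for each probe set in the deposited tables, and all 29 were measured both on the reporter arrays (of 21395 genes) and on the arrays of wild-type and knockout mice (of 25003 genes). Each had 1 probe set per table except Npc1, with 2 on the latter arrays, of which the brighter was kept, and Glb1 was named there by its transcript accession.

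RNA came from eosinophils sorted from the lamina propria of the mouse small intestine and was measured on 13 microarrays. In mice with mCherry knocked into Clec4a4, which encodes an inhibitory C-type lectin, 5 mCherry+ and 5 mCherry- samples were taken. A separate set held 3 single samples: wild-type (WT) cells sorted as Clec4a4+, WT cells sorted as Clec4a4-, and Clec4a4- cells from Ahr knockout (KO) mice, which by their label lack the aryl hydrocarbon receptor, a ligand-activated transcription factor. The labels give no age, sex, copy number of the reporter allele or design of the Ahr deletion, and they do not say which mouse a sample came from, so the p-values measure only the spread between these samples. The arrays address which genes separate Clec4a4+ from Clec4a4- eosinophils and which of them depend on Ahr.

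Lysosomes are acidic compartments in which hydrolases break down proteins, glycans and lipids delivered by endocytosis, phagocytosis and autophagy. Cathepsins are their proteases, a proton pump keeps the lumen acidic, and heavily glycosylated membrane proteins line the inner face. Many of the genes share a promoter element bound by Tfeb, which enters the nucleus when nutrients or lysosomal function fall. In eosinophils the granules are related to lysosomes, and Cd63 is a membrane protein of both.

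All values are log2 intensities. Epithelial markers were strong on the reporter arrays, where each of 12 lay above the median of all gene values (5.36) on all 10 arrays. By sign 9 of the 12 were lower and 3 higher in mCherry+ (median -0.17), with no call in either fit. The mean of the 12 was lower in mCherry+ in 4 of 5 pairs. Their mean was 8.05 and 8.18 on the arrays of replicate number 1 and 9.90 to 10.79 on the other 8, so both arrays of number 1 stood apart. Among the reporter arrays Xist was also high only there (10.36 and 9.90, against 3.56 to 3.93). On the single arrays Xist stood at 10.78 (WT Clec4a4+), 10.91 (WT Clec4a4-) and 10.69 (labelled Ahr KO). The mean of 10 eosinophil markers ranged from 6.67 to 7.95, with Siglecf, an eosinophil surface lectin, at 7.41 to 8.97. With the replicate block Itgax was called higher in mCherry+ (0.91) and the granule protein genes Prg2 (-1.02) and Ear2 (-1.31) lower, and none of the 10 was called without it. Macrophage markers averaged 5.20 to 6.0 in mCherry+ and 5.35 to 6.04 in mCherry-, with the complement gene C1qa at 5.22 ± 0.58 (SD, n = 5) and 5.03 ± 0.52. Cd14, another of these markers, stood at 6.03 ± 0.60 in mCherry+ and 8.21 ± 1.66 in mCherry-. Of 10 neutrophil markers, S100a8 and S100a9 fell in mCherry+, by 5.27 and 5.03 on the log2 scale. Over all 10 the median difference was -0.09, and the mean of the other 8 was 5.67 to 6.07 in mCherry+ against 5.81 to 6.06. Stromal and endothelial markers were higher by sign in mCherry+ for 5 of 5 genes (median 0.26), and Pecam1 was called with the replicate block (0.78, limma adjusted p = 0.0121). T, NK and innate lymphoid cell markers averaged 5.83 to 6.68 in mCherry+ and 5.37 to 6.59 in mCherry-, with no call in either fit. Among them Cd3e stood at 7.88 ± 0.57 in mCherry+ and 7.95 ± 0.29 in mCherry-. Clec4a4 was higher in mCherry+ in 5 of 5 pairs, at 9.18 ± 0.62 against 7.52 ± 0.62. It was not past limma's test without the replicate block (adjusted p = 0.0804) and passed with it (0.00205). In bulk samples such as these, fewer cells of a type and less RNA per cell cannot be told apart.

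One member passed the test across all genes in the reporter comparison. Ctsd (Entrez gene 13033), which encodes the aspartic protease cathepsin D, fell in mCherry+ eosinophils. No member rose (0 of 29, with 4 at an unadjusted p under 0.05), and 3 members lay lower at that level, against 3.8% and 3.52% of all genes. The background was low as well, since limma called 0.145% of all genes higher and 0.21% lower (0.355% in all) at a Benjamini-Hochberg adjusted p under 0.05. Arrays of the same replicate number deviated together, so a second fit took that number as a block. With the block, Cd68 rose and Ctsd and Ctsz fell, 1 higher and 2 lower of 29 against 1.01% and 0.748% of all genes (1.76% in either direction). The median difference of the 29 members was 0.13 on the log2 scale, against -0.01 for all genes, with 19 members higher and 10 lower by sign.

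Of the 7 cathepsins, Ctsd stood at 9.64, 9.61, 9.71, 9.19 and 9.73 in mCherry- samples 1 to 5 and at 8.20, 8.79, 8.64, 8.89 and 8.50 in mCherry+ samples 1 to 5. The groups did not overlap, although the mCherry- array of number 4 lay close to the mCherry+ values. The mean fell from 9.58 ± 0.22 to 8.60 ± 0.27 (SD, n = 5 each), a log2 difference of -0.98 (SE 0.17, 1.97-fold, limma adjusted p = 0.0381, and 0.0233 with the block). By its p-value Ctsd ranked 58 among 21395 genes. The call held when either array of number 4 was left out and was lost without any 1 of the other 8, with adjusted p from 0.0716 to 0.119 and differences from -0.87 to -1.02. Without both arrays of number 1 it was -0.86 (adjusted p = 0.115, and 0.0879 with the block). The neutrophil markers S100a8 and S100a9 were also lower in mCherry+. The mean of the other 8 neutrophil markers differed by 0.04 and was higher in 4 of 5 pairs. The part of any cell type in the Ctsd value was not tested.

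Ctsz (Entrez gene 64138), a carboxypeptidase of the papain family, stood at 8.47, 8.72, 8.76, 8.82 and 9.06 in mCherry- and at 7.83, 8.21, 8.22, 8.26 and 8.18 in mCherry+ samples 1 to 5. Every mCherry+ value lay under every mCherry- value, as for 1.07% of all genes. The difference of -0.62 (SE 0.15, 1.54-fold) was not past the test without the block (adjusted p = 0.156) and passed with it (0.0314). Under the block it was lost when any 1 number was left out, with adjusted p from 0.0674 to 0.117 and differences from -0.56 to -0.65.

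Ctsl, a cysteine endopeptidase, pointed the other way. It stood at 6.31, 6.87, 7.11, 7.71 and 6.97 in mCherry- and at 7.48, 8.09, 7.76, 7.74 and 8.03 in mCherry+ samples 1 to 5. It was higher in 5 of 5 pairs, by only 0.03 in pair 4, and the groups overlapped through the mCherry- array of number 4. The difference was 0.83 (SE 0.24, limma adjusted p = 0.294, and 0.0887 with the block). Ctsh, an aminopeptidase, was also higher in 5 of 5 pairs, from 0.07 in pair 1 to 1.05 in pair 5, at 9.89 ± 0.32 in mCherry+ and 9.41 ± 0.57 in mCherry- (difference 0.48, adjusted p = 0.788).

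Differences of the other 3 cathepsins were small next to their spread. Ctsb, an endopeptidase and exopeptidase, differed by 0.07 (95% interval -0.41 to 0.55). Ctsc, which activates granule serine proteases by trimming dipeptides, differed by -0.14 (-0.78 to 0.50), with pair differences from -1.24 to 0.78. Ctsa, the protective protein that stabilises Neu1 and Glb1, differed by 0.05 (-0.29 to 0.39). The cathepsins therefore did not move as a block, with 4 higher and 3 lower by sign and a range of -0.98 to 0.83.

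**Figure D1:**
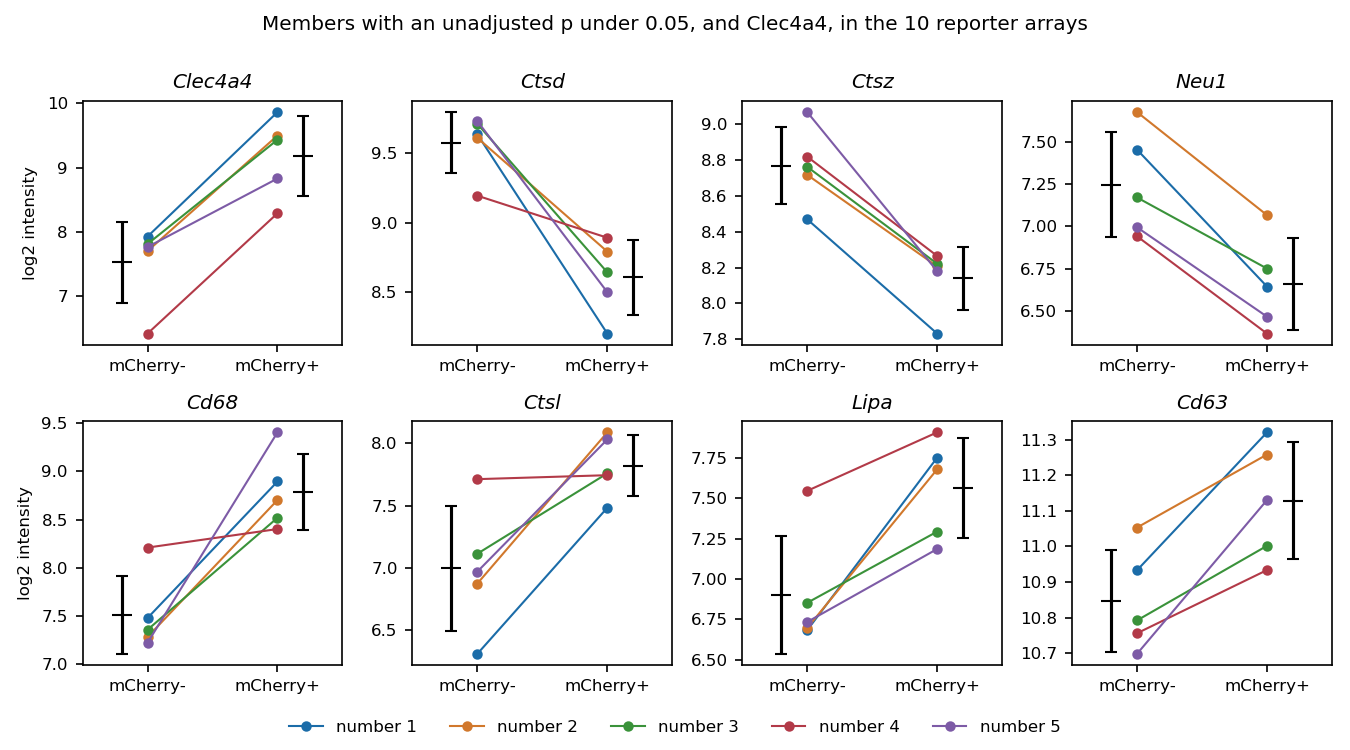
Log2 intensity (vertical axes) of Clec4a4 and of the 7 members with an unadjusted p under 0.05 in mCherry- and mCherry+ eosinophils. Each coloured line joins the 2 arrays of a replicate number, and black bars are the mean and SD of 5 arrays. Ctsd and Ctsz are lower and Cd68 is higher in mCherry+ without overlap. The arrays of number 4 differ least for Ctsd, Cd68, Ctsl, Lipa and Cd63.

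None of the 9 other hydrolases passed in either fit. Lipa, the acid lipase that frees cholesterol and fatty acids from lipoprotein esters, stood at 6.68, 6.70, 6.85, 7.54 and 6.73 in mCherry- and at 7.75, 7.68, 7.29, 7.91 and 7.19 in mCherry+ samples 1 to 5. It was higher in 5 of 5 pairs, with overlap through the mCherry- array of number 4 (difference 0.66, SE 0.21, limma adjusted p = 0.388, and 0.0949 with the block). Neu1, the sialidase, was lower in 5 of 5 pairs. Its values were 7.45, 7.68, 7.17, 6.94 and 6.99 in mCherry- and 6.64, 7.07, 6.75, 6.37 and 6.47 in mCherry+, with overlapping groups (difference -0.59, SE 0.19, adjusted p = 0.395, and 0.068 with the block).

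For the remaining 7 hydrolases no pair direction was shared by all 5 numbers. Lgmn, the asparaginyl endopeptidase legumain that processes cathepsins, differed by -0.50 (95% interval -1.13 to 0.13), with pair differences from -1.36 to 0.07. Hexa, a subunit of hexosaminidase that degrades gangliosides, differed by 0.36 (-0.13 to 0.85). Tpp1, a tripeptidyl peptidase, differed by 0.21 and Man2b1, an alpha-mannosidase, by 0.17. Smaller still were Glb1, the beta-galactosidase, at -0.10, Gla, the alpha-galactosidase, at -0.09, and Gusb, the beta-glucuronidase, at 0.02. Gusb lay near the median of all genes, at 5.29 ± 0.15 and 5.27 ± 0.38. The 2 luminal helper proteins were not past the test either. Psap, the precursor of the saposins that present sphingolipids to their hydrolases, differed by 0.24 (adjusted p = 0.854). Npc2, which hands cholesterol to Npc1, differed by 0.19 (adjusted p = 0.901).

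Among the 7 membrane proteins, Cd68 (Entrez gene 12514), a glycoprotein of phagocyte lysosomes and endosomes, stood at 7.48, 7.28, 7.36, 8.21 and 7.22 in mCherry- and at 8.90, 8.70, 8.52, 8.40 and 9.41 in mCherry+ samples 1 to 5. All mCherry+ values lay above all mCherry- values, as for 0.832% of all genes. The pair differences were 1.42, 1.42, 1.16, 0.19 and 2.18. The mean was 8.79 ± 0.39 against 7.51 ± 0.40, a log2 difference of 1.28 (SE 0.24, 2.42-fold). It was the only member 2-fold or more apart in the reporter comparison, where 1.02% of all genes were. It narrowly missed the test without the block (limma adjusted p = 0.0535) and passed with it (0.0429). Without the mCherry- array of number 4 it was 1.45 (adjusted p = 0.0171), and without the mCherry+ array of that number 1.37 (0.0409). Without any other single array the adjusted p was up to 0.148. Under the block it was lost without number 1, 2, 3 or 5 (adjusted p 0.117 to 0.153) and held without number 4 (1.55, adjusted p = 0.0102). Of the 12 macrophage markers 6 were higher and 6 lower by sign, with a median of 0.07 and no call in either fit. C1qa differed by 0.18 (limma adjusted p = 0.978). Cd14 differed by -2.18 (limma adjusted p = 0.362, and 0.171 with the block) and was lower in every pair, by 0.40 to 4.36. The part of other cell types in the Cd68 value was not tested.

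The other 6 membrane proteins differed by less than 0.5 on the log2 scale. Cd63, a tetraspanin of lysosomes and eosinophil granules, stood at 10.93, 11.05, 10.79, 10.76 and 10.70 in mCherry- and at 11.32, 11.26, 11.002, 10.93 and 11.13 in mCherry+. It was higher in 5 of 5 pairs, by 0.18 to 0.43, and was not called (difference 0.28, SE 0.12, adjusted p = 0.613, and 0.101 with the block). Lamp1, an abundant protein of the lysosomal lining, had the smallest difference of the 29 members, -0.01 (95% interval -0.23 to 0.22), at 10.07 ± 0.06 and 10.08 ± 0.09. Its relative Lamp2, which also serves chaperone-mediated autophagy, differed by 0.20, Laptm5, a membrane protein of blood cells, by 0.14, the calcium channel Mcoln1 by 0.34 and the cholesterol exporter Npc1 by 0.13. Lamp2, Laptm5 and Mcoln1 were each higher in 5 of 5 pairs. In all, 8 of 29 members were higher and 3 lower in every pair, against 5.97% and 5.95% of all genes, and 5 of those 8 were membrane proteins.

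The pump subunits and Tfeb did not pass in either fit. Atp6v0d1, the widely expressed d subunit that joins its membrane and cytosolic sectors, differed by 0.21 and Atp6v1a, a catalytic subunit, by -0.25. Atp6v0d2, the d subunit known from osteoclasts and macrophages, lay under the median of all genes on all 10 arrays (2.59 to 3.83) and differed by 0.11. Tfeb stood at 5.79 ± 0.15 in mCherry+ and 5.88 ± 0.32 in mCherry- (difference -0.09, 95% interval -0.44 to 0.25).

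**Figure D2:**
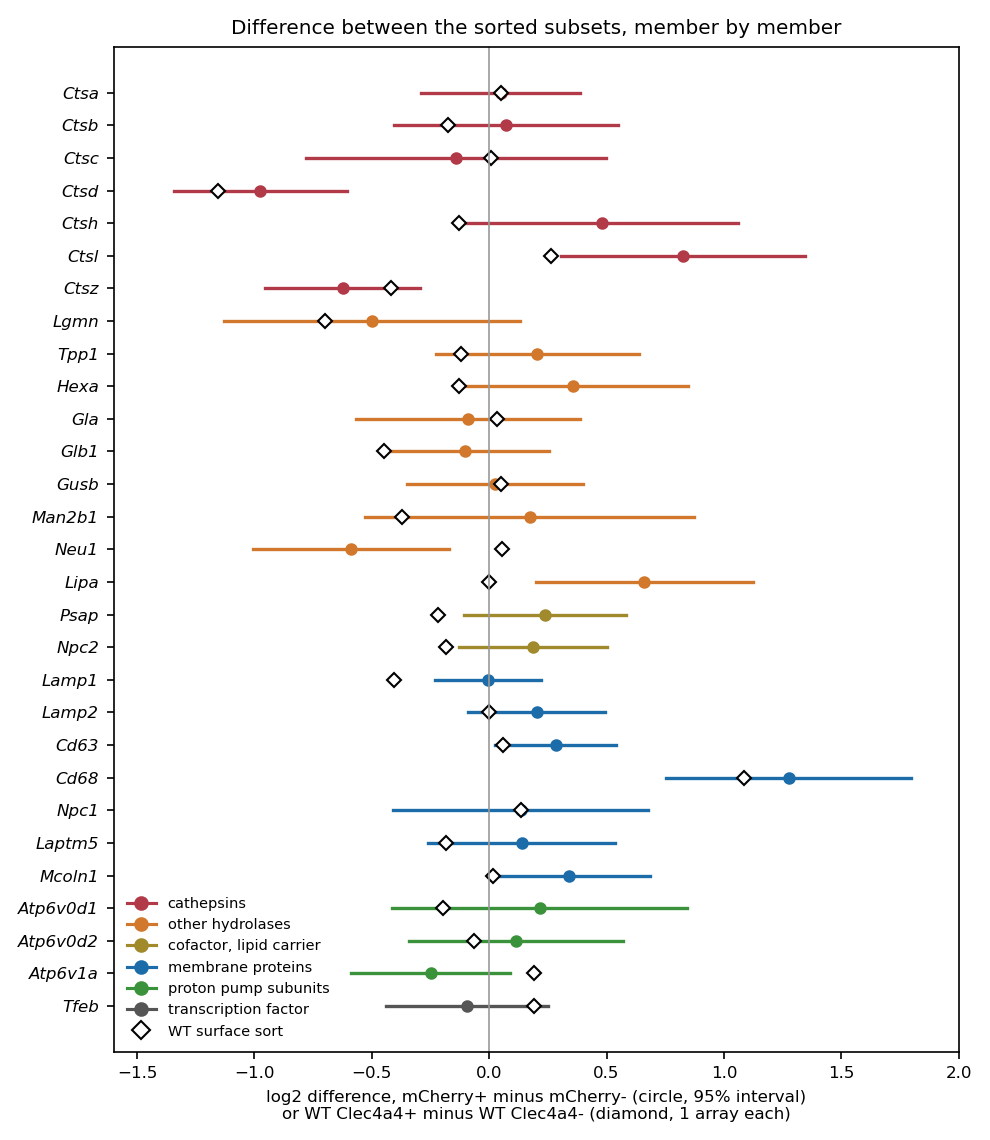
Log2 difference between subsets (horizontal axis) for the 29 members, coloured by role. Circles with lines give mCherry+ minus mCherry- with its 95% interval (5 arrays per group), and diamonds give WT Clec4a4+ minus WT Clec4a4- (1 array each). Circle and diamond both lie near or beyond 1 in size only for Ctsd (-0.98 and -1.16) and Cd68 (1.28 and 1.08).

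Promoter sequence is shown for the 3 members called with the block, and for Lamp1 and Mcoln1 as members with several Tfeb-type elements and differences of -0.01 and 0.34. RefSeq promoter entries (build GRCm38.p6) were matched for 25 of the 29 members, all but Ctsb, Ctsh, Npc1 and Atp6v0d2. The motif searched was CACGTG, the core of the element bound by Tfeb and other E-box factors, which reads the same on both strands. In the 250 bases before to 50 after a gene's start, it was present in 10 of the 25 members (40.0%) and in 8.09% of 27025 genes. The longer GTCACGTG, which contains the core and was searched on both strands, was present in 8 of the 25 (32.0%) against 2.55%. Its full form, extended equally on the other side of the core, was present in 0 of the 25 against 0.37%. With so low a share of all genes, 25 members are too few to show a shortage of the full form. Bases before the start are printed 5′ to 3′ on the gene's strand, with CACGTG in capitals.
Ctsd, chr7:142387828-142388077, minus strand: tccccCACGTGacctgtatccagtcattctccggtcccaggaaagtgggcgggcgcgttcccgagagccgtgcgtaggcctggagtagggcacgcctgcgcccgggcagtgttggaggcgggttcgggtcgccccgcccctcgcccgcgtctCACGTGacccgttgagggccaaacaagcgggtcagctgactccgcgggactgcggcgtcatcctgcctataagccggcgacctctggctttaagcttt
Ctsz, chr2:174439040-174439189, minus strand: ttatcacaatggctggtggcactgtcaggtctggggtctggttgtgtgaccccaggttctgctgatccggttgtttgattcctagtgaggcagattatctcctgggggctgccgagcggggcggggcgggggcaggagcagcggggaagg
Cd68, chr11:69666171-69666320, minus strand: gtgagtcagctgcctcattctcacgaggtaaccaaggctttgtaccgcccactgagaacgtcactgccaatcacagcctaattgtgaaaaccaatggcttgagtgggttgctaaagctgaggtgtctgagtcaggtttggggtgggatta
Lamp1, chr8:13159081-13159160, plus strand: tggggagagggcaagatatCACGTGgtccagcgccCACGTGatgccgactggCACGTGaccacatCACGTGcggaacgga
Mcoln1, chr8:3500439-3500518, plus strand: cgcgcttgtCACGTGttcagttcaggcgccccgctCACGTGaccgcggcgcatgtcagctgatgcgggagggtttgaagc
Ctsd holds 2 copies, Mcoln1 2 and Lamp1 4, and these letters are not in the windows of Ctsz and Cd68. Members with the motif thus included Ctsd, which fell, Ctsl, which was higher by sign, and Lamp1, with a difference of -0.01.

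Set against the other members on the same array, the cathepsins did not separate the subsets. The mean of the 7 cathepsins minus the mean of the other 22 members was 0.56, 0.60, 0.76, 0.77 and 0.87 in mCherry- and 0.14, 0.61, 0.54, 0.82 and 0.55 in mCherry+ samples 1 to 5. The groups overlapped, 2 pairs were higher and 3 lower, and the mean difference was -0.18, which moved to -0.02 without Ctsd. The mean of the 9 other hydrolases differed by 0.02, and that of the 7 membrane proteins by 0.34 with 5 of 5 pairs higher. The median difference of these 7 membrane proteins was 0.20, and that of Cd68 1.28. These means describe members chosen with results known and carry no test.

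**Figure D3:**
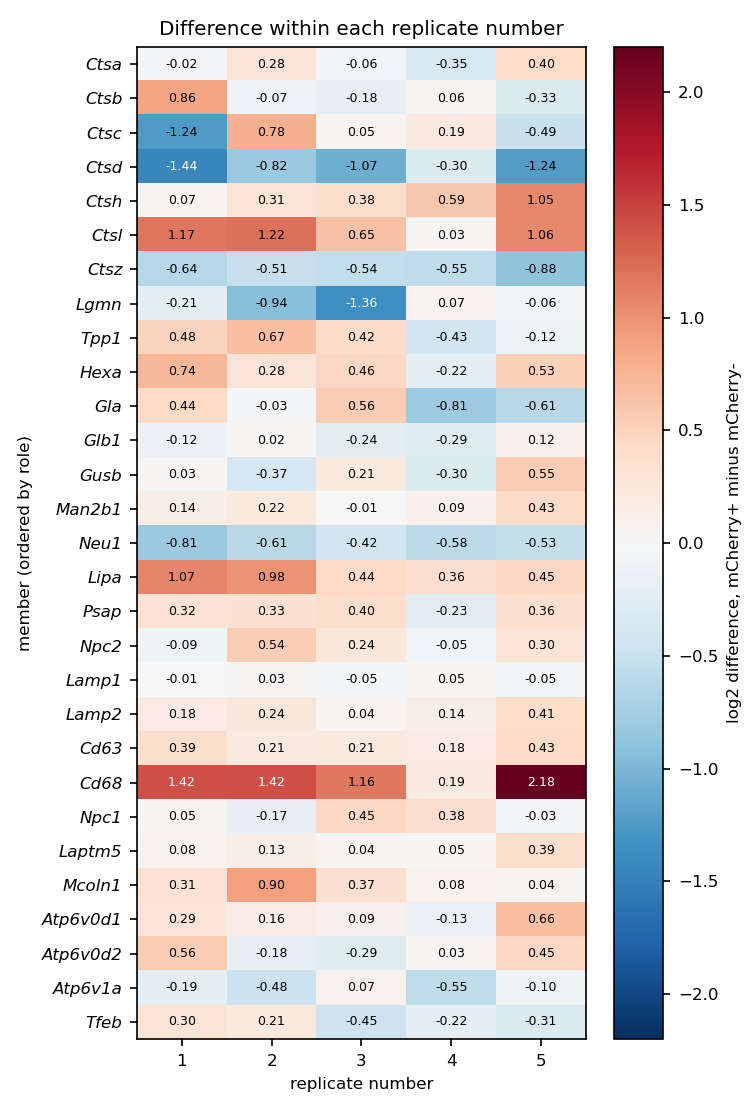
Log2 difference, mCherry+ minus mCherry-, for each of the 29 members (vertical axis, ordered by role) within each of the 5 replicate numbers (horizontal axis). Red is higher and blue lower in mCherry+, and the value is written in each cell. Rows of Ctsd, Ctsz and Neu1 are blue and those of Cd68, Lipa and Cd63 red in all 5 numbers. Those of Ctsd, Cd68, Lipa and Cd63 are palest in number 4.

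Several members differed widely between replicate numbers. As the mean of both arrays of a number, Man2b1 ranged from 10.37 in number 1 to 8.91 in number 4, Atp6v0d1 from 8.71 in number 2 to 7.51 in number 4, and Ctsh from 10.09 in number 1 to 9.05 in number 4. Number 4 held the lowest mean for 11 members, and for 32.3% of all genes. The eosinophil markers were lowest in number 4 too, at 6.72, and highest in number 1, at 7.73, while the epithelial markers ran from 8.12 in number 1 to 10.71 in number 4. Over the 5 numbers, 4 of 29 members (Man2b1, Laptm5, Ctsh and Atp6v1a) followed the eosinophil marker order exactly, against 3.26% of all genes. Ctsb, 1 of 29, followed that of the epithelial markers, against 2.71% of all genes, so this count lay near the background share. The share of cell types in these member levels was not tested.

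**Figure D4:**
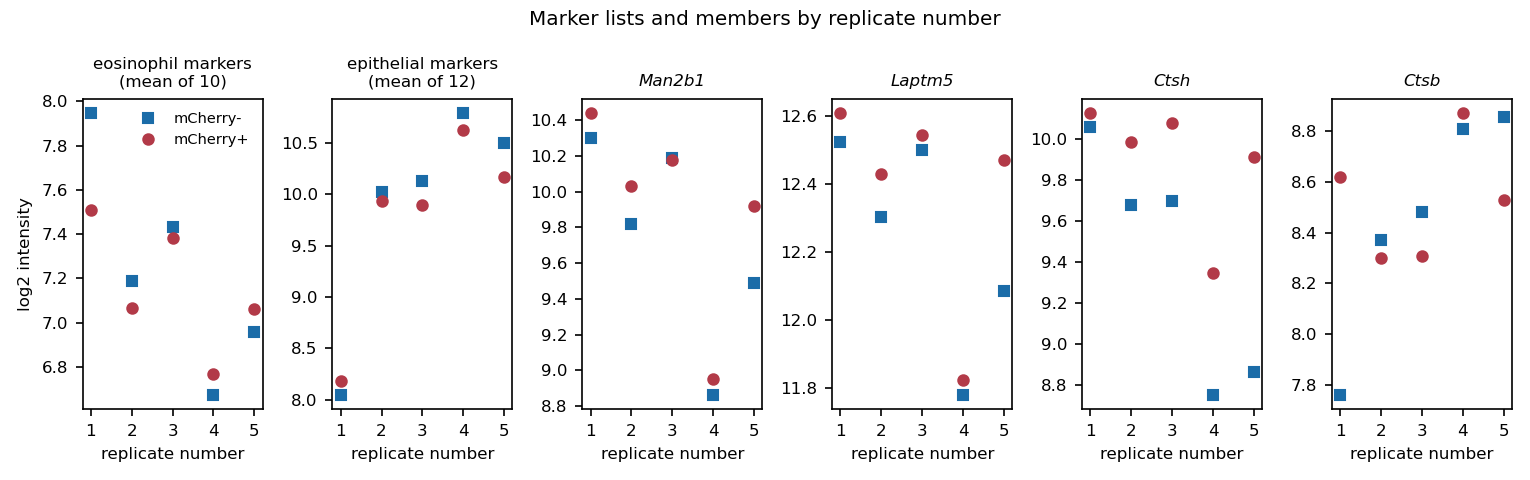
Log2 intensity (vertical axes) by replicate number (horizontal axes) for the mean of 10 eosinophil markers, the mean of 12 epithelial markers and 4 members, in mCherry- (squares) and mCherry+ (circles). Number 1 has the weakest epithelial signal (8.05 and 8.18), and Man2b1, Laptm5 and Ctsh are lowest in number 4, where eosinophil markers are lowest.

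The WT arrays compared cells sorted by surface Clec4a4 instead of by the reporter, with 1 array per subset and no replicate check. Whether both sorts give the same subsets was not tested. The sorted protein's own transcript read 9.14 in Clec4a4+ cells and 5.56 in Clec4a4- cells. Ctsd was 2.23-fold lower in the Clec4a4+ array (7.42 against 8.58) and Cd68 2.12-fold higher (8.46 against 7.37). These were the only 2 members 2-fold or more apart, 1 higher and 1 lower, against 0.64% and 1.03% of all genes by the same rule (1.67% in all). Their differences of -1.16 and 1.08 lay beside -0.98 and 1.28 in the reporter comparison, from different mice and another array model. Xist was high on both WT arrays (10.78 and 10.91), as on the reporter arrays of number 1 only. For scale, the SD within reporter groups was 0.25 for Ctsd and 0.40 for Cd68.

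The next in size were Lgmn, lower by sign by 0.70 (7.28 against 7.98), and Glb1 (5.81 against 6.26). Ctsz was 8.74 in Clec4a4+ against 9.15, the direction of the reporter mice, and Ctsl 6.61 against 6.34. Lipa and Neu1, which leaned in every reporter pair, were nearly level here, at 7.78 in both arrays and at 7.58 against 7.53. Over all members 12 of 29 (41.4%) had the same sign in both sorts, against 52.8% of 20845 genes. The median difference was -0.06 here and 0.13 in the reporter mice. Of the marker lists, dendritic cell markers averaged 5.89 in WT Clec4a4+, 4.86 in WT Clec4a4- and 4.82 in the array labelled Ahr KO. The genes furthest apart in that list were Cd209a, at 7.64, 4.10 and 4.02, and H2-Ab1, at 10.16, 7.49 and 7.18. Between the WT arrays Itgae differed by 1.12, and Flt3, Zbtb46, Ccr7, Xcr1 and Clec9a by -0.10 to 0.41. These lists' part in the Cd68 and Ctsd values was not tested. T, NK and innate lymphoid cell markers averaged 5.45 in WT Clec4a4+ and 4.89 in WT Clec4a4-, and eosinophil markers 7.91 and 8.39. Neutrophil markers averaged 5.42 and 5.76, or 5.62 and 5.46 without S100a8 and S100a9, macrophage markers 5.07 and 5.06, and epithelial markers 5.49 and 5.84 against a table median of 4.80.

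The array labelled Ahr KO Clec4a4- was set against both WT arrays, to which the same limit of 1 array per group applies. Ahr itself stood at 11.12 there, 11.08 in WT Clec4a4- and 11.11 in WT Clec4a4+, so its probe set does not show a loss of transcript. The sources used here do not say whether its probes lie in the deleted part, so the level does not check the label. Clec4a4 was at 3.93, under the table median.

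Ctsc was the member that stood out, at 8.06 in the array labelled Ahr KO against 6.79 in WT Clec4a4- and 6.80 in WT Clec4a4+. This is 2.40-fold over the former and 2.39-fold over the latter, and the WT arrays differed by 0.01. It was the only member 2-fold or more apart in either comparison, higher in each, against 0.596% and 0.496% of all genes in that direction (1.37% and 0.992% in both). In the reporter mice, single arrays of Ctsc ranged from 6.68 to 7.93 in mCherry- and from 6.69 to 7.94 in mCherry+, with a pooled SD within groups of 0.51.

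Ctsd and Cd68 lay nearer to WT Clec4a4- than to WT Clec4a4+ in the array labelled Ahr KO. Ctsd stood at 8.37, differing by -0.21 from WT Clec4a4- and by 0.94 from WT Clec4a4+, and Cd68 at 7.59, differing by 0.22 and -0.87. Both comparisons share arrays with the WT comparison, so the values are given side by side only. Gusb was 1.81-fold and Gla 1.46-fold higher than in WT Clec4a4-, while Atp6v0d1 was 1.48-fold lower (7.65 against 8.22). The other members, apart from Neu1 (0.39), Npc1 (0.30) and Laptm5 (differing by 0.29), lay within 0.27 of WT Clec4a4-, and Tfeb stood at 5.44 against 5.29.

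**Figure D5:**
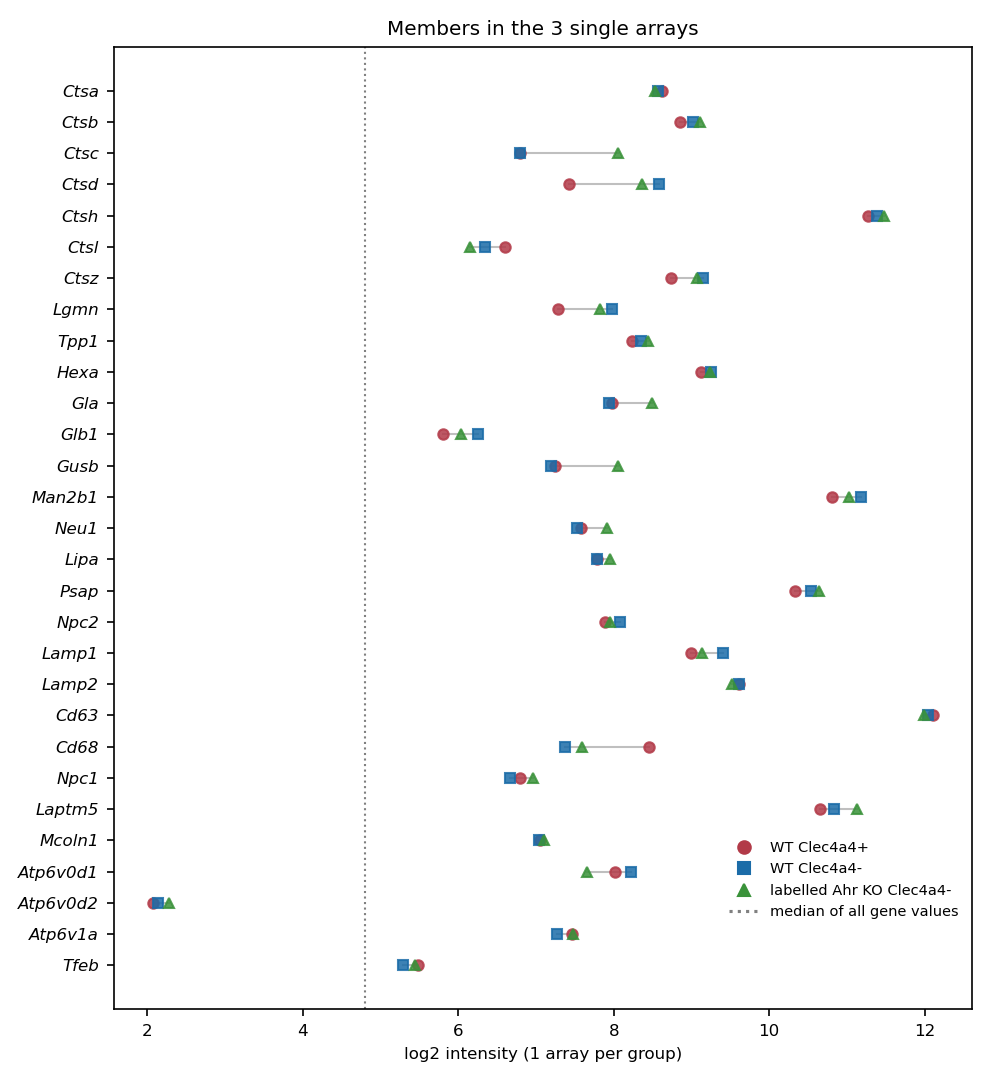
Log2 intensity (horizontal axis) of the 29 members on the 3 single arrays, WT Clec4a4+ (circles), WT Clec4a4- (squares) and the array labelled Ahr KO Clec4a4- (triangles), with the median of all gene values (4.80) dotted. Symbols separate by more than 1 for Ctsd and Cd68, where the circle stands apart, and for Ctsc, where the triangle does, while Atp6v0d2 lies under the median on all 3.

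Further genes of the lysosome were followed in 7 lists of 85 genes (7 other cathepsins, 9 cathepsin inhibitors, 26 hydrolases, 16 membrane proteins, 14 pump subunits, 6 sorting factors and 7 members and regulators of the Tfeb family). Limma called 0 of the 85 without the block, with 11 at an unadjusted p under 0.05, and 3 higher and 2 lower with it. Over all genes these rules called 0.355% (unblocked), 3.8% higher and 3.52% lower (unadjusted), and 1.01% higher and 0.748% lower (blocked). The genes called with the block were hydrolases and membrane proteins. Slc11a1, the metal transporter of phagosomes known as NRAMP1, stood at 8.13 ± 0.53 in mCherry+ and 9.50 ± 0.62 in mCherry- without overlap (-1.37, adjusted p = 0.146, and 0.00413 with the block). In the WT arrays it was 5.64-fold lower in Clec4a4+ (6.81 against 9.31), and it was 8.58 in the array labelled Ahr KO. S100a8 and S100a9 were also lower by sign in WT Clec4a4+. The mean of the other 8 neutrophil markers was 5.62 in WT Clec4a4+ and 5.46 in WT Clec4a4-. Whether any of these share a source with the Slc11a1 value was not tested.

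Acp5, the tartrate-resistant acid phosphatase, stood at 10.14 ± 0.49 in mCherry+ and 9.12 ± 0.28 in mCherry- (adjusted p = 0.122, and 0.0144 with the block) and at 9.52 in WT Clec4a4+ against 8.53 in WT Clec4a4-. Cln3, a membrane protein lost in a childhood storage disease, was higher in 5 of 5 pairs, at 9.57 ± 0.65 against 8.47 ± 0.59 (adjusted p = 0.376, blocked 0.00703). Laptm4a, a relative of Laptm5, was too, at 11.17 ± 0.26 against 10.41 ± 0.37 (adjusted p = 0.185, blocked 0.00413). In the lists without a call in either fit, the largest differences were -0.36 for the aspartic cathepsin Ctse, -0.79 for the inhibitor Cst7, 0.34 for the pump subunit Tcirg1, 0.53 for the sorting receptor Sort1 and -0.71 for Rragd, a GTPase of nutrient sensing. Of the 14 pump subunits 12 were higher by sign, with a median of 0.11 and no call in either fit. Among all 21395 genes, 10175 were higher by sign.

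In the WT arrays 0 of the 85 genes were 2-fold or more higher and 3 were lower in Clec4a4+: Slc11a1, Ctse (4.01-fold, 6.90 against 8.91) and Cst7 (3.11-fold, 5.83 against 7.47), beside 0.64% and 1.03% of all genes. In the array labelled Ahr KO, Laptm4b, Serpinb1a and Gnptab were higher than in WT Clec4a4-, and Ctss and Cst7 lower, beside 0.596% and 0.772% of all genes. These 3 and Ctss lie outside the rule for named genes and were picked after their values were seen. Ctss, the cathepsin of antigen processing, stood at 5.66 there against 7.10 in WT Clec4a4- and 7.73 in WT Clec4a4+.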

How the data were processed

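The authors deposited log2 intensities, and these were used unchanged, in 1 table for the 10 reporter arrays and 1 for the 3 others. Per the submitters' processing notes the method was RMA (background correction, quantile normalization and probe summary), with a version not given in the sources used here. Both tables were normalized separately, so every difference is within a table. Per the labels' protocols, cDNA was amplified from 2 ng of total RNA. Arrays carry no read depth, and their number limits the precision.

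Probe sets were named by Entrez identifier or accession through a RefSeq table (GRCm38.p6), and the brightest per gene was kept. mCherry+ was tested against mCherry- with limma 3.58.1 (R 4.3.3), trend and robust moderation, without a block, over 21395 genes. Replicate numbers come from the sample titles; deviations from group means correlated within each number (0.659, 0.165, 0.171, 0.527 and 0.199), so blocked values are given where the block changes a call. The single arrays were compared without a test: 2-fold or more where the higher value reached the table median (4.80). All 29 members are named; from the other lists, called genes and the largest difference per list. Members and lists were chosen with earlier results of these data known. Protein sequences were not used here, and 1 called gene of the other lists is not reported here by name.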

Additional observations from a re-analysis of the deposited data

Results flagged for a closer look

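In 7 of 58 groups of 5 arrays, 1 array stood far from the other 4 by Dixon's test, where chance alone flags about 1 in 20 groups. On the mCherry- array of number 4, Ctsd was the lowest (9.19, next 9.61), Cd68 the highest (8.21, next 7.48) and Lipa the highest (7.54, next 6.85). On the mCherry+ array of number 4, Ctsh was the lowest (9.34, next 9.91) and so was Laptm5 (11.83, next 12.43). Ctsz was lowest on the mCherry+ array of number 1 (7.83, next 8.18), and Lamp1 on the mCherry+ array of number 2 (9.96, next 10.08). Number 4 also had the highest epithelial and lowest eosinophil marker means, and the part of these in the 5 values from number 4 was not tested.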

How the results depend on the processing

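Without the replicate block 0 members were called higher, 1 lower and 0 of the other lysosomal genes. With the replicate block these counts were 1, 2 and 5, and with the number as a random block 1, 2 and 3. Leaving out 1 array gave 0 to 1, 0 to 1 and 0 to 2, with medians over the members of 0.05 to 0.18 and cathepsins minus other members at -0.25 to -0.08. Without both arrays of number 1, 0 were lower. Without trend and robust moderation, or with only genes above the median, 1 was higher. With the block and without 1 number, a setting chosen after seeing the data, 0 were lower without numbers 1, 2, 3 or 5. Without number 4, 2 were higher (Cd68 and Ctsl) and 1 lower. The other lysosomal genes called were then 3, 4, 3, 5 and 3 without numbers 1 to 5. Over all genes 76 were called without the block, 376 with it and 220 with the random block, and 29 to 115 with 1 array left out. At 1.5-fold, 2 members separated the array labelled Ahr KO from WT Clec4a4-, with Gusb joining Ctsc. From WT Clec4a4+ it was 4, with Ctsd and Cd68 as well. Between the WT arrays Lgmn (1.63-fold lower in Clec4a4+) joined Ctsd and Cd68. The share of all genes at 1.5-fold is not given here, so these counts are not read against a background. Other probe set, centring, quantile and source settings changed no count of members.

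No called member changed sign. Signs turned only for uncalled differences near 0. Leaving out 1 array, the ranges were -0.021 to 0.14 for Ctsa, -0.10 to 0.17 for Ctsb, -0.34 to 0.022 for Ctsc, -0.25 to 0.034 for Gla, -0.14 to 0.12 for Gusb, -0.045 to 0.41 for Man2b1, -0.042 to 0.022 for Lamp1 and -0.080 to 0.23 for Atp6v0d2. Without both arrays of number 1, with or without the block, Ctsb was -0.13 and Ctsc 0.13. With the block, Ctsa was -0.0091 without number 2 and -0.040 without 5, Gusb -0.023 without 3 and -0.11 without 5, Lamp1 0.0049 without 3 and 0.0040 without 5, and Gla 0.089 without 4 and 0.041 without 5. The cause of these changes was not tested.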
